A study of Mus musculus with 234 samples.

Results

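The 9 genes described here encode proteins of the Z-disc and the giant proteins that span the sarcomere of cardiomyocytes (CMs): Actn2, Ldb3, Myoz2, Tcap, Nebl, Pdlim5, Ttn, Myom1 and Synpo2l. They were chosen by name, and each of the 9 had exactly 1 row among the 55538 features of a table of read counts from single mouse CMs. The table holds 234 hand-picked CMs, sequenced without molecular identifiers by SMART-seq2 (a full-length cDNA protocol), from 5 mice.

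Control cells came from mice M26 (24 cells) and M73 (9 cells), labelled as wt in their titles, as control and as C57BL/6. According to the study's methods, controls were siblings that were wild-type, carried only the PGK-Cre allele, or carried only the transgene with its STOP cassette in place. Transgenic cells carried CAG-driven human BAG3 with the P209L mutation fused to eGFP at the Rosa26 locus, with the STOP cassette deleted by PGK-Cre (PGKcre:BAG3P209L). The transgenic line came from a single embryonic stem cell clone on a mixed background, and PGK-Cre is a Cre driver that is not restricted to CMs. Mice M25 and M116 were homozygous and M72 was heterozygous. The labels divide the cells of each transgenic mouse by eGFP fluorescence into bright and dim. There were 21 homo_bright and 18 homo_dim cells of M25, 59 and 50 of M116, and 27 het_bright and 26 het_dim cells of M72. The homozygous and control mice were 2 weeks old, and the age of M72 is not given. M25 and M26 shared plate GL-9122b, M73 and M72 shared plate GL9989-1, and M116 lay on GL9989-2 and GL9989-3.

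Z-discs are the borders of the sarcomere, where actin filaments of opposite polarity are cross-linked by α-actinin and held by a dense set of adaptor proteins. Titin runs from the Z-disc to the M-band in the middle of the sarcomere, acts as a spring and a ruler, and is held at the Z-disc by telethonin and at the M-band by myomesin. BAG3 is a co-chaperone that works at the Z-disc in the clearance of mechanically damaged proteins such as filamin C, and the P209L mutation is known from severe childhood myopathy and cardiomyopathy.

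Cells were pooled by mouse and label into 8 sums, which held 4096609 to 40508124 counts. Levels are in CPM, counts scaled to the total of the sum or cell. Single cells had between 487 and 1392253 counts, and 15 cells had fewer than 1000 genes. The transgene transcript hBAG stood at 0.408 and 0.488 CPM in the control sums of M26 and M73. It reached 294 CPM in homo_bright M25 and 233 CPM in homo_bright M116, against 10.7 and 99.6 CPM in the homo_dim sums of these mice. In M72 the order was opposite to the labels, with 105 CPM in the cells labelled het_bright and 251 CPM in the cells labelled het_dim. The 8 cardiomyocyte markers summed to between 52578 and 64899 CPM in the 8 sums. The fibroblast markers (6 genes) summed to 1960 CPM in homo_bright M25 and to at most 328 CPM elsewhere. The 6 endothelial markers summed to 64.6 and 78.1 CPM in homo_bright M25 and M116 against 176 and 174 CPM in their dim cells. The 6 immune markers summed to 0.264 and 1.97 CPM against 59.8 and 54.1 CPM, so both lists were higher in dim cells of these mice. Few cells held the immune counts: Lyz2, the highest of the list, was counted in 1 of 18 dim cells of M25 and 3 of 50 of M116. In M72 the immune markers summed to 19.1 CPM in the cells labelled het_bright and 3.10 CPM in those labelled het_dim. The endothelial markers of M72 went the other way, with 98.2 and 168 CPM. Red blood cell markers (2 genes) reached 889 CPM in the cells labelled het_bright and 275 CPM in homo_dim M25, with at most 3.07 CPM elsewhere. The 4 mural markers ranged from 323 to 1642 CPM. Most of this was Acta2, with 241 CPM in control M73 and 1620 CPM in homo_bright M116, counted in most cells of every sum. The others reached at most 93.4 CPM (Rgs5), 19.3 CPM (Pdgfrb) and 0.049 CPM (Myh11). The part of these markers in the comparisons was not tested. Among the 219 cells with at least 1000 genes, 2 cells, both of homo_bright M25, held only 1055 and 1751 CPM of the cardiomyocyte markers, while each of the other 217 held at least 29973. The first of them had 38514 CPM of the fibroblast markers and 58.9 CPM of Ttn. The second had no count of these fibroblast markers and 255 CPM of Ttn. Leaving both out raised the level of the 9 genes in homo_bright M25 by 6.26 to 6.39%, and the fold changes that use this sum are given with and without them.

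The 250 bases before the transcription start are printed for the pair of genes whose levels moved together most across cells (Ttn and Myom1), for the next pair (Actn2 and Ldb3), and for both annotated starts of Synpo2l. They are from RefSeq on GRCm38.p6, read on the strand of the gene, and 8 of the 9 genes had 14 promoter entries. Capitals mark matches to a MEF2 site or to a CArG box, the binding motif of serum response factor.
Ttn, chr2:76982548-76982797, minus strand: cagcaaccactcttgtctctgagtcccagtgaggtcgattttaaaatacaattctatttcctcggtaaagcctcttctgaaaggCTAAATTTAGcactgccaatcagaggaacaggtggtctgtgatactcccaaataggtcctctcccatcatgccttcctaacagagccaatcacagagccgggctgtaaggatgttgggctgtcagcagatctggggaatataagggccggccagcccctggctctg
Myom1, chr17:71019307-71019556, plus strand: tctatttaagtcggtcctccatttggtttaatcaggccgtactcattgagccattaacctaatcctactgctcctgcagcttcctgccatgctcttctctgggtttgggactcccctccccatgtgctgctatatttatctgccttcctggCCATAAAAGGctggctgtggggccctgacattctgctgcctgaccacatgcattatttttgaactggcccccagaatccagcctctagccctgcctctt
Actn2, chr13:12340733-12340982, minus strand: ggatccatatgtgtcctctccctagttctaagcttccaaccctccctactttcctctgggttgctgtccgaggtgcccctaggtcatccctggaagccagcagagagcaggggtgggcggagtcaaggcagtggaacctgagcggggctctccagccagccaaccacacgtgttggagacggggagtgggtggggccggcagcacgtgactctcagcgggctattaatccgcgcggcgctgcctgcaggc
Ldb3, chr14:34588608-34588857, minus strand: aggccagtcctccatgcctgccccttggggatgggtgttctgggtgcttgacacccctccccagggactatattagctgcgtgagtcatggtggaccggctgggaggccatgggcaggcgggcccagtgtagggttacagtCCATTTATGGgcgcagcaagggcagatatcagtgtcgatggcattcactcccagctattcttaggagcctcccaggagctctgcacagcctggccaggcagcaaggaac
Synpo2l, chr14:20664575-20664824, minus strand: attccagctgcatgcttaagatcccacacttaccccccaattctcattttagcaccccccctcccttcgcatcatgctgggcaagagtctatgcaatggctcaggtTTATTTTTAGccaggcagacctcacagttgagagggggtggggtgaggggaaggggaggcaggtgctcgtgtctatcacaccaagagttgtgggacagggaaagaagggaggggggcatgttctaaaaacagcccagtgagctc
Synpo2l, chr14:20668355-20668604, minus strand: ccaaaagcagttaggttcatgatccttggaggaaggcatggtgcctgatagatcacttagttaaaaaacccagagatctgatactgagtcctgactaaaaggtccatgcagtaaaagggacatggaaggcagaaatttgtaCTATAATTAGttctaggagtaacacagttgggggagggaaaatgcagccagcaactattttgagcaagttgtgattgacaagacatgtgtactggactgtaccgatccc

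A MEF2 match stood in 4 of the 14 entries (Myoz2, Ttn and both starts of Synpo2l), and 2.92% of the 32841 mouse promoter windows of this length held such a match. A CArG box also stood in 4 of the 14 (Nebl, Myom1 and both starts of Ldb3, whose windows overlap and hold the same site), against 1.47% of all windows. An MCAT element, CATTCC on either strand, stood in 1 of the 14, an entry of Nebl, against 12.6% of windows. The E-box CANNTG, the same on both strands, stood in 9 of the 14, and in 66.2% of all windows. Ttn and Myom1 thus shared an E-box but neither of the rarer motifs. Matches of letters are a description and do not show that a factor binds there.

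Levels are given first, as CPM normalized by the trimmed mean of M values (TMM) over the 8 sums. For a comparison between genes these levels were divided by the exon length of each gene in kilobases (GENCODE vM21), from 0.948 kb for Tcap to 117 kb for Ttn. Tcap, which encodes the titin cap telethonin, was the most abundant per kilobase in all 8 sums (561 to 1225 normalized CPM per kb), followed in all 8 by the α-actinin gene Actn2 (435 to 570). Myoz2, encoding a calsarcin that tethers calcineurin to the Z-disc, followed at 248 to 417 and stood behind Ttn only in the 2 sums of M72. Ttn had 134 to 322 and Ldb3, encoding the PDZ-LIM protein ZASP (Cypher), 136 to 226, and their order changed between sums. Pdlim5 (64.3 to 135), encoding the PDZ-LIM protein ENH, and Myom1 (72.3 to 108), encoding myomesin of the M-band, also changed places. Nebl, encoding the Z-disc actin binder nebulette, had 30.2 to 47.1 and Synpo2l, encoding a synaptopodin-like actin-bundling protein of the Z-disc, 23.2 to 48.2. Synpo2l stood above Nebl in the 2 homo_bright sums and below it in the other 6.

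Without division by length, Ttn had by far the most counts of the 9 genes, and its levels grouped by plate. Its normalized level was 19972 CPM in control M26 and 34913 CPM in control M73. It was 15691 and 18952 CPM in homo_bright M25 and M116, and 19539 and 20419 CPM in their homo_dim cells. The cells labelled het_bright and het_dim of M72 had 37587 and 29282 CPM. The 3 sums from plate GL9989-1 (M73 and M72) were thus the highest, and the control and the heterozygous mouse lay together above all homozygous sums and above the other control. The 9 genes together took 3.60 to 4.26% of all counts on that plate and 2.41 to 2.94% in the other 5 sums.

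**Figure D1:**
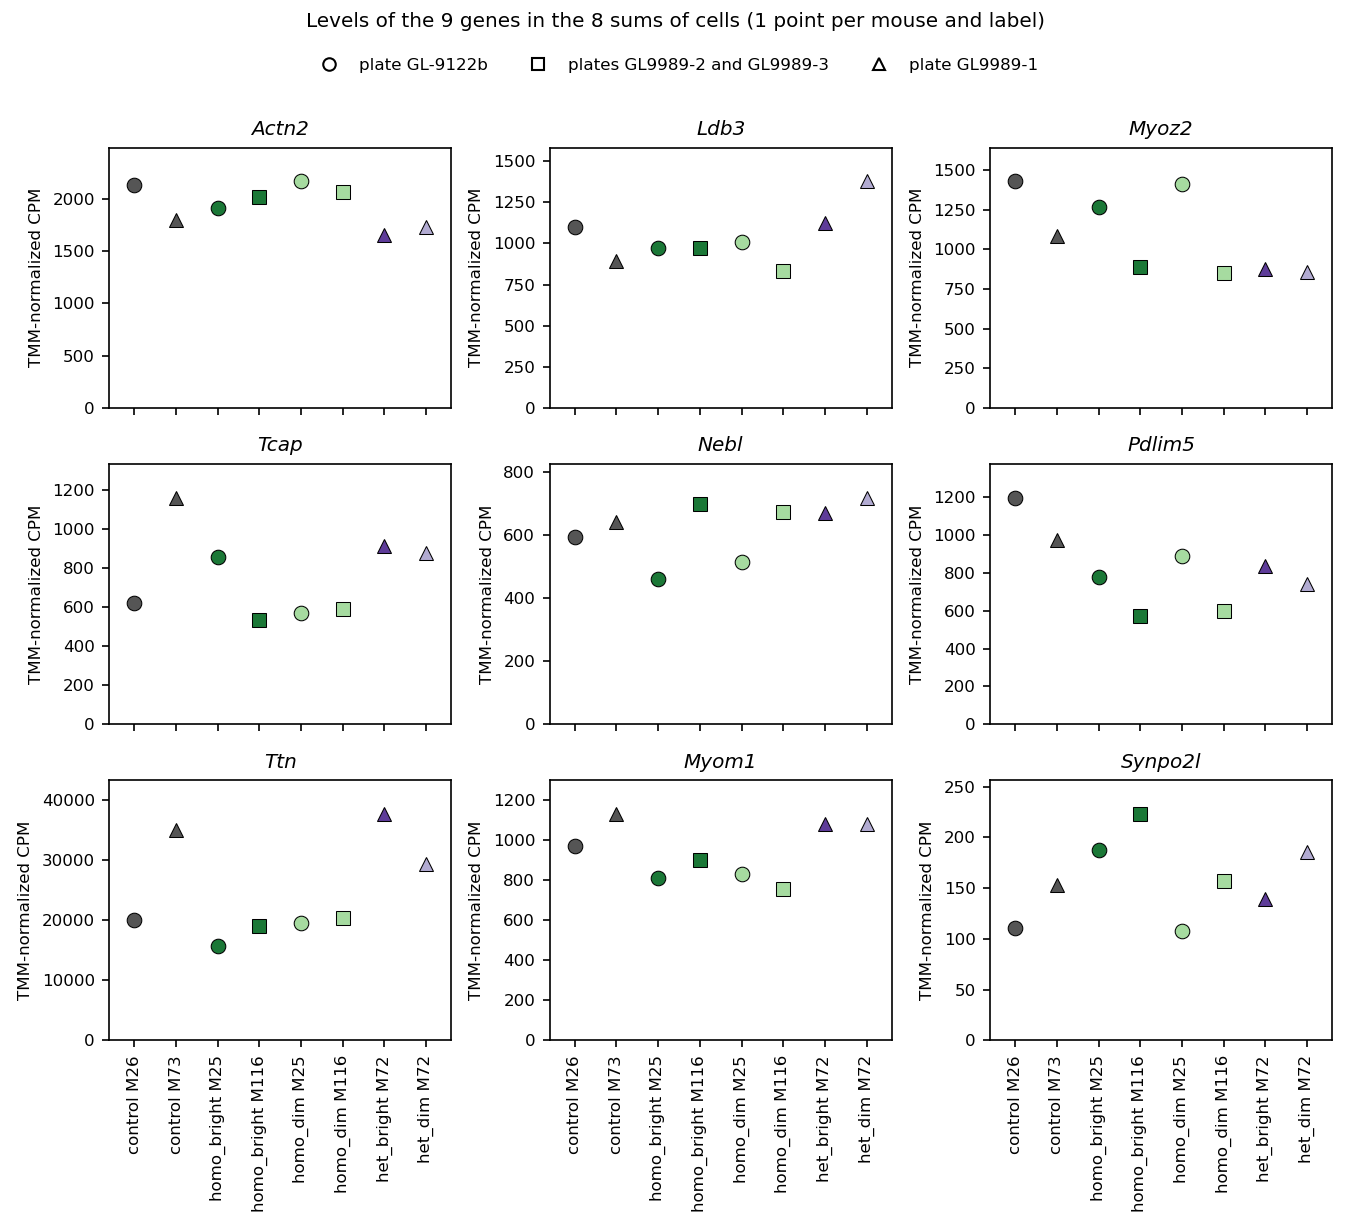
TMM-normalized CPM (y axis, linear from 0) of the 9 genes in the 8 sums of cells (x axis), 1 point per mouse and label. Point shape gives the plate. Ttn and Tcap are high in the triangles of plate GL9989-1, Pdlim5 is highest in the controls, and Synpo2l is higher in homo_bright than in homo_dim cells of each homozygous mouse.

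Long transcripts as a class were also high on that plate. Among 196 genes whose longest coding transcript measured 10 kb or more, the median log2 difference from control M26 was 0.64 in control M73, 0.68 in the cells labelled het_bright and 0.60 in those labelled het_dim. It was between 0.08 and 0.29 in the 4 homozygous sums. Among 1589 genes with transcripts under 2 kb it was -0.47, -0.42 and -0.39 in the 3 sums of plate GL9989-1 and -0.35 to -0.14 in the homozygous sums. Ttn differed from control M26 by 0.81 in control M73. The share of mitochondrially encoded counts was 31.7% in M73, 29.1 and 27.1% in the sums of M72, and 24.7 to 27.2% in the other sums. The part of length and plate in the differences of Ttn was not tested.

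**Figure D2:**
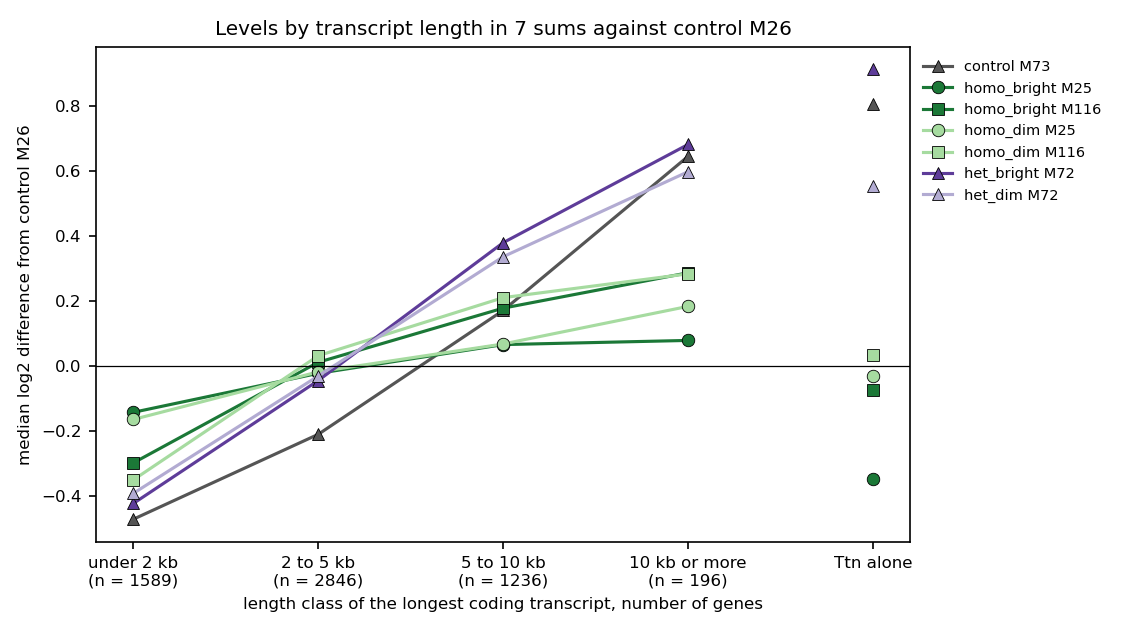
Median log2 difference of normalized CPM from control M26 (y axis) for genes in 4 classes of transcript length (x axis), for the other 7 sums; the points at the right show Ttn alone. The 3 sums of plate GL9989-1 (triangles) rise most steeply with length, to medians of 0.60 to 0.68 at 10 kb or more.

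The first comparison asked which genes differed between bright homozygous and control CMs. With the quasi-likelihood test of edgeR, 0 of the 9 genes passed an adjusted p of 0.05, and 0.0164% of the 12203 genes tested did. Both called genes were the transgene features. DESeq2 called 0 of the 9 and 0.869% of all genes. The fold change was above 0 for 1 of the 9, against 54.1% of all genes. At an unadjusted p under 0.05 stood 1 of the 9, Pdlim5, against 6.55% of all genes. For 4 of the 9 genes the bright and control mice did not overlap, beside 39.2% of all genes tested. Synpo2l was the 1 gene higher in both bright mice (24.3% of all genes), and Pdlim5, Ttn and Myom1 were lower in both (14.8%). The median log2 fold change of the 9 was -0.24, beside 0.11 for all genes, and it was -0.09 without bright M116. With library size in place of TMM factors, the median of all genes moved to 0.41 and that of the 9 to 0.06. All directions are therefore given relative to the TMM scale.

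Pdlim5 had 1152 and 983 normalized CPM in control M26 and M73, against 757 and 552 in homo_bright M25 and M116. Both bright mice lay below both controls, by -0.71 on the log2 scale (SE 0.29, edgeR adjusted p = 0.763). These levels were normalized over the compared sums only. With TMM over all sums, M25 differed from M26 by -0.62 within plate GL-9122b. On that scale the difference between M116 and M73, which share no plate, was -0.77. Pdlim5 stayed below 0 in all 12 other fits, from -0.91 to -0.40, and was -0.64 without the 2 cells that lacked CM markers.

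Synpo2l went the other way. It had 107 and 154 normalized CPM in the control mice and 182 and 216 in the bright mice, a log2 fold change of 0.61 (SE 0.34, edgeR adjusted p = 0.876). The lowest bright mouse lay above the highest control. With TMM over all sums in place of the compared ones, the difference within plate GL-9122b was 0.76, and M116 stood 0.54 above M73. The fold change was 0.67 without the 2 cells, and lay between 0.39 (without M26) and 2.10 (cells weighted equally) over the 12 other fits.

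Ttn had 19211 and 35132 normalized CPM in the controls and 15207 and 18327 in the bright mice, which did not overlap. Its log2 fold change of -0.70 (SE 0.37, edgeR adjusted p = 0.866) rested on M73: it was -0.20 without that mouse and -1.05 without M26. With TMM over all sums in place of the compared ones, M25 lay 0.35 below M26 on the shared plate, while M116 lay 0.88 below M73. Between M116 and M73 the 196 long-transcript genes had a median of -0.26. Myom1, whose product links titin to the M-band, had 935 and 1139 normalized CPM in the controls against 787 and 874 (log2 fold change -0.32, SE 0.27, edgeR adjusted p = 0.929). Its groups did not overlap, but with library size in place of TMM the fold change was 0.013, with cells weighted equally 0.032, and without M73 -0.17.

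The remaining 5 genes overlapped between bright and control mice. Actn2 had 2047 and 1803 normalized CPM in the controls and 1849 and 1953 in the bright mice, a log2 fold change of -0.02 (SE 0.25). For Ldb3 it was -0.06 (SE 0.26), for Nebl -0.12 (SE 0.31) and for Myoz2 -0.24 (SE 0.30), which was -0.0085 without bright M116 and -0.48 without bright M25. Tcap had 596 and 1168 normalized CPM in the controls and 829 and 514 in the bright mice, so the control mice lay farther apart than the bright mice. Its log2 fold change of -0.39 (SE 0.42) became 0.17 without M73. The signs of Actn2, Ldb3, Nebl and Myoz2 turned with library size in place of TMM. Without the 2 cells that lacked CM markers the fold changes were 0.040 for Actn2, -0.0021 for Ldb3, -0.066 for Nebl, -0.17 for Myoz2 and -0.32 for Tcap, and -0.64 for Ttn and -0.26 for Myom1.

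**Figure D3:**
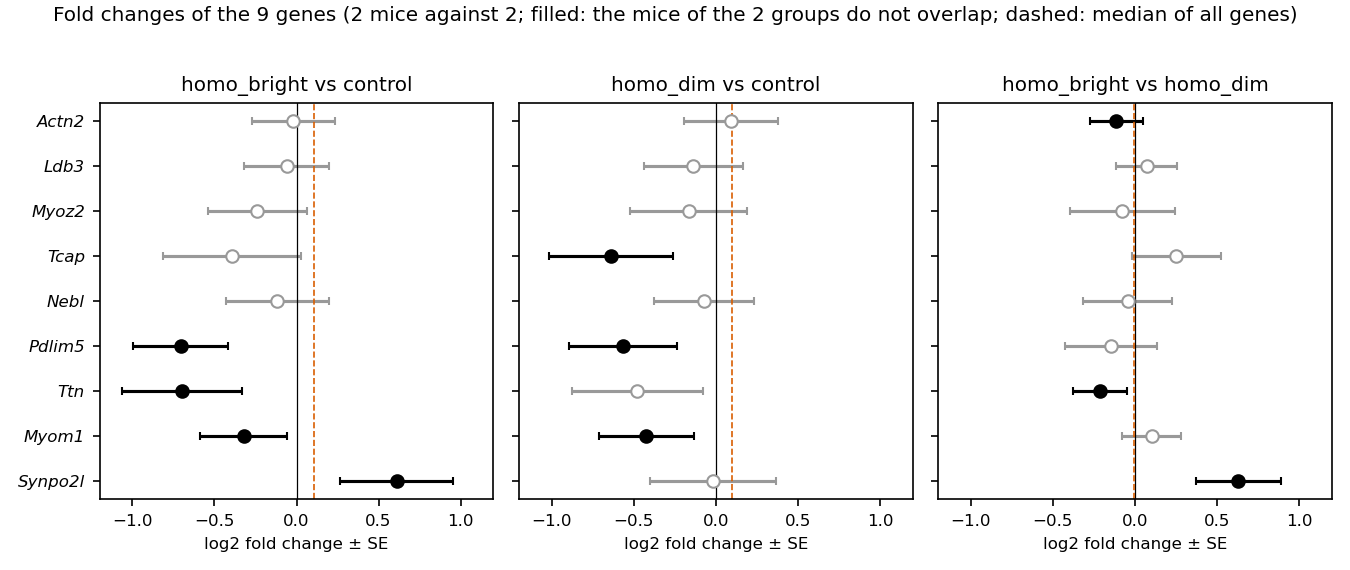
Log2 fold change with its standard error (x axis) of the 9 genes (y axis) in the 3 comparisons of 2 mice against 2. Filled points mark genes whose mice did not overlap between groups, and the dashed line gives the median of all genes tested. In bright against control CMs Pdlim5 and Ttn lie below 0 (-0.71 and -0.70) and Synpo2l above it (0.61), while 0 of the 9 genes passed the adjusted threshold.

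The second comparison set dim homozygous against the same control cells. In edgeR's test 0 of the 9 genes passed, as did 0% of the 12195 genes tested, and DESeq2 called 0 of the 9 and 0.451% of all genes. At an unadjusted p under 0.05 stood 0 of the 9, against 6.22% of all genes. For 3 genes, Tcap, Pdlim5 and Myom1, both dim mice lay below both controls, beside 14.2% of all genes that were lower in both and 38% that separated in either direction. The fold change was above 0 for 1 gene, Actn2, against 54.2% of all genes. Pdlim5 had 1158 and 958 normalized CPM in the controls and 858 and 574 in the dim mice M25 and M116 (log2 fold change -0.56, SE 0.33, edgeR adjusted p = 0.960). This was -0.31 without dim M116 and -0.17 with cells weighted equally. Tcap had 599 and 1138 against 548 and 568 (-0.64, SE 0.38, edgeR adjusted p = 0.962), and this was -0.10 without M73 and -1.02 without M26. For Myom1 the values were 941 and 1110 against 803 and 727 (-0.42, SE 0.29, edgeR adjusted p = 0.979), but its fold change was 0.61 with cells weighted equally and -0.12 with library size in place of TMM.

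Ttn had 18831 and 19614 normalized CPM in the dim mice, near the 19322 of control M26 and far under the 34229 of M73 (log2 fold change -0.48, SE 0.40). This was -0.0049 without M73 and -0.82 without M26. Synpo2l overlapped, with 104 and 151 normalized CPM in the dim mice and 107 and 150 in the controls (-0.02, SE 0.38). With cells weighted equally its fold change was 1.81. Actn2 stood at 0.09, Ldb3 at -0.14, Myoz2 at -0.17 and Nebl at -0.07, each with an SE of at least 0.29. Because both comparisons use the same 2 control mice, their values are given side by side and their likeness is no further evidence.

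The third comparison, bright against dim CMs of the same 2 homozygous mice, needs no control animal. In edgeR's test 0 of the 9 genes passed, as did 0% of the 13439 genes tested, and DESeq2 called 0 of the 9 and 0.662% of all genes. At an unadjusted p under 0.05 stood 0 of the 9, against 4.12% of all genes. Bright and dim sums did not overlap for 3 genes (Actn2, Ttn and Synpo2l), beside 31.1% of all genes. Synpo2l was the 1 gene higher in both mice (15.1% of all genes), and Actn2 and Ttn were lower in both (16%). The fold change was above 0 for 4 of the 9, against 49.5% of all genes. Synpo2l had 203 and 237 normalized CPM in bright and 115.98 and 168 in dim cells of M25 and M116, a log2 fold change of 0.63 (SE 0.26, unadjusted p = 0.0557 and adjusted p = 0.999 by edgeR). It was higher in bright cells of both mice, by 0.81 in M25 and 0.51 in M116 with TMM over all sums. The value was 0.68 without the 2 cells, 0.65 with the mouse as a block, 0.39 without dim M25 and 0.29 with cells weighted equally.

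Ttn was 16908 and 20160 normalized CPM in bright against 21077 and 21925 in dim cells (log2 fold change -0.21, SE 0.16), and this was -0.091 without bright M25 and -0.70 with cells weighted equally. Actn2 had 2056 and 2148 against 2334 and 2217 (-0.11, SE 0.16), which was -0.58 with cells weighted equally. For the other genes the fold changes ran from -0.14 for Pdlim5 to 0.25 for Tcap, each with an SE of at least 0.18. With TMM over all sums, Tcap was 0.59 higher in bright cells of M25 but 0.15 lower in those of M116. Without the 2 cells the fold changes were -0.17 for Ttn, -0.065 for Actn2, 0.12 for Ldb3, -0.017 for Myoz2, 0.31 for Tcap, -0.0045 for Nebl, -0.087 for Pdlim5 and 0.15 for Myom1.

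Cells of M116 lay on 2 plates, which gives the spread of 1 animal and label between plates. In bright cells, 29 on GL9989-2 and 30 on GL9989-3, 8 of the 9 genes differed by at most 0.18 on the log2 scale. Synpo2l was the exception, with 206 and 292 CPM, a difference of 0.50. In dim cells, 29 and 21, Synpo2l had 206 and 120 CPM, a difference of -0.77, and Ttn had 24972 and 18441 CPM (-0.44). The other genes differed by 0.10 (Myoz2) to 0.38 (Nebl) in size in dim cells. On GL9989-2 Synpo2l therefore stood at 206 CPM in both bright and dim cells, and the difference between bright and dim cells of M116 came from GL9989-3. Between plates of this mouse Synpo2l thus differed by 0.50 in bright and 0.77 in dim cells in size. Its fold changes between groups were 0.61 and 0.63. Ttn and Actn2 of M116 were lower in bright than in dim cells only on GL9989-2 (21612 against 24972 and 2238 against 2418 CPM). On GL9989-3 they were higher in bright cells (20530 against 18441 and 2255 against 2021 CPM).

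The heterozygous mouse has no replicate and no test. The cells labelled het_bright and het_dim shared a plate with control M73. Differences from M73 on the log2 scale were at most 0.63 in size, for Ldb3, which had 893 normalized CPM in M73, 1126 in het_bright and 1377 in het_dim cells. Pdlim5 was below M73 in both, with 977 CPM in M73, 836 in het_bright and 743 in het_dim cells, so M25 and M72 had less Pdlim5 than the control on their plate, while M116 shared no plate with a control. Synpo2l had 153 CPM in M73, 139 in het_bright and 186 in het_dim cells. It was thus higher in the label with more hBAG, the cells labelled het_dim. Ttn was higher in the label with less hBAG, at 37587 against 29282 CPM.

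Single cells showed how far each sum rests on few cells. Over cells with at least 1000 genes, leaving out the 2 without CM markers, the median coefficient of variation over the 8 sums was 0.26 for Myoz2 and 0.27 for Actn2, and 0.32 to 0.39 for Ldb3, Myom1, Ttn, Nebl and Pdlim5. For Tcap it was 0.46. Synpo2l stood apart with 0.91, and 1.72 in the 8 cells of control M73. In M73 its lowest, median and highest cell had 0, 39.8 and 601 CPM, so 1 cell carried much of the sum. In M26 they were 0, 87.2 and 448 CPM. Medians were 138 and 212 CPM in homo_bright M25 and M116, 96.1 and 129 CPM in their dim cells, and 75.8 and 153 CPM in het_bright and het_dim cells. Both bright medians exceeded both control and both dim medians.

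Cells with at least 1 count of Synpo2l were 18 of 20 in M26, 7 of 8 in M73, and 19 of 20 and 54 of 56 in homo_bright M25 and M116. Thinned to 200000 counts each, the shares were 90, 87.5, 95 and 96.2% (18 of 20, 7 of 8, 19 of 20 and 50 of 52 cells). In homo_bright M25 the single cell without a count of Synpo2l was among the 2 without CM markers. For Ttn the lowest, median and highest cells were 6900, 18905 and 30859 CPM in M26, and 18973, 28863 and 43283 CPM in M73. The median cell of M73 thus lay above all but the highest cell of M26, and the difference between these control mice was spread over many cells.

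**Figure D4:**
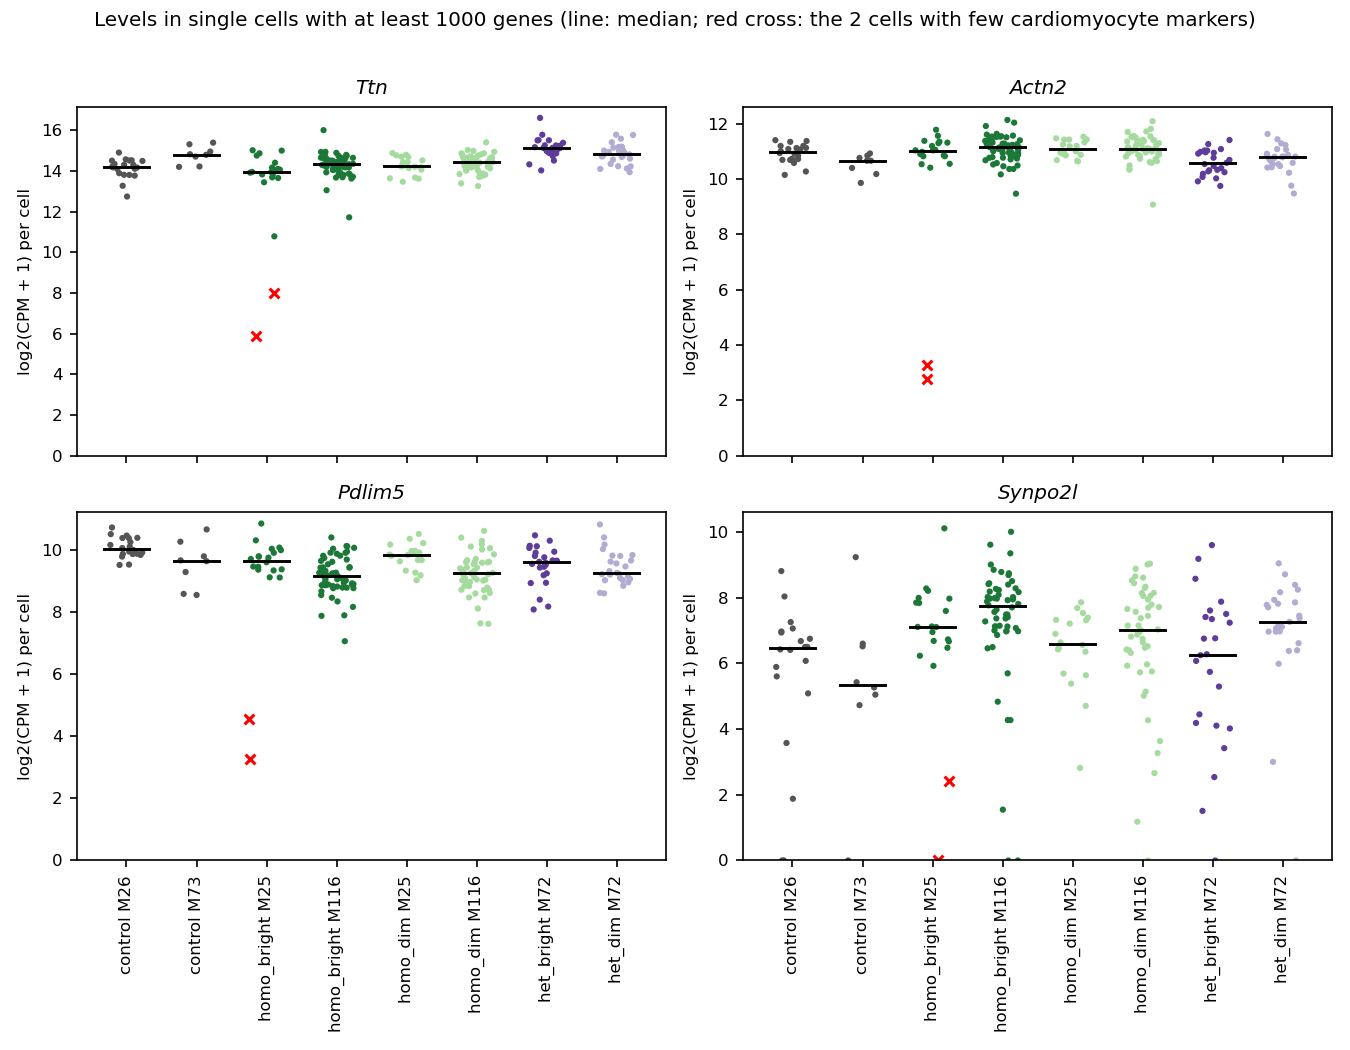
Levels of Ttn, Actn2, Pdlim5 and Synpo2l in single cells (y axis, log2 of CPM plus 1) by mouse and label (x axis), with the median as a line. Red crosses mark the 2 cells of homo_bright M25 with few cardiomyocyte markers, which fall far below all other cells for Ttn and Actn2, and Synpo2l spreads widely in every group.

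Correlations across cells were computed within each of the 7 sums with at least 15 such cells (211 cells) and averaged. These cells share a plate and an animal, so the values are a description. Of the 36 pairs of the 9 genes, 33 had a mean Spearman rho above 0 and the median was 0.12, beside 0.02 for the 9 genes against all genes used. The pairs were weak. Ttn and Myom1 had the highest mean rho, 0.39, and it was above 0 in all 7 sums (0.12 to 0.75). Actn2 and Ldb3 followed with 0.33 (0.17 to 0.48). Next came Nebl and Ttn (0.28), Ldb3 and Synpo2l (0.27), and Ldb3 and Myom1 (0.27). The lowest were Myoz2 with Ttn and Tcap with Pdlim5, both at -0.11. Without the 2 cells that lacked CM markers the median was 0.08, and Ttn with Myom1 had 0.36.

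**Figure D5:**
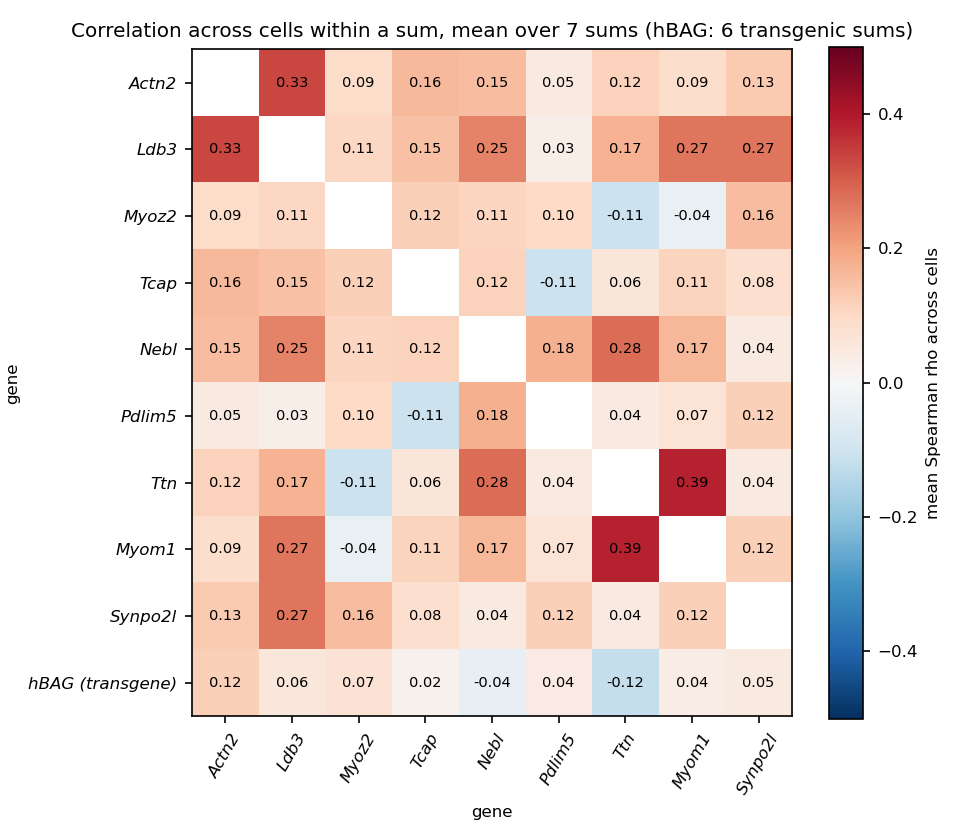
Mean Spearman rho across cells (colour and number, -0.5 to 0.5) for each pair of the 9 genes over 7 sums, and for each gene with the transgene transcript hBAG over 6 transgenic sums. Ttn with Myom1 and Actn2 with Ldb3 are the darkest cells, at 0.39 and 0.33, and the hBAG row is near 0.

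Within the 6 transgenic sums mean rho with hBAG across cells ran from -0.12 for Ttn to 0.12 for Actn2. With BAG-eGFP, the other transgene feature, it ran from -0.05 for Ttn to 0.21 for Actn2 (above 0 in 5 of 6 sums), with 0.15 for Myoz2 and for Ldb3. The sums differed: for Ttn with hBAG rho was -0.42 and -0.31 in homo_bright M25 and M116, -0.35 and 0.05 in their dim cells, and 0.36 and -0.05 in the cells labelled het_bright and het_dim. For Synpo2l the mean rho with hBAG was 0.05, between -0.28 and 0.23 in single sums. Only 10 of 18 cells of homo_dim M25 and 16 of 24 labelled het_bright had a count of hBAG, so their other cells were tied. Without the 2 cells lacking CM markers, Ttn with hBAG had -0.55 in homo_bright M25 (18 cells) and a mean of -0.14, and Actn2 had a mean of 0.10 with hBAG and 0.16 with BAG-eGFP. Ttn was lower in cells of greater depth, with a mean rho of -0.38 with total counts and -0.38 with genes detected, while the other 8 genes lay between -0.13 and 0.14 with total counts. Without the 2 cells these values for Ttn were -0.43 and -0.43.

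The genes most like each of the 9 over these cells were ranked by mean rho among 4899 genes. Ttn was closest to Ryr2 (mean rho 0.62), the ryanodine receptor of the sarcoplasmic reticulum, then to Dst (0.48), a cytolinker, and Myh6 (0.45), the α-myosin heavy chain. Ryr2 and Dst have coding transcripts of 16.8 and 23.3 kb, and Myh6 has one of 6.11 kb. Actn2 was closest to Nrap (0.33), a nebulin-related protein of actin anchoring, Ldb3 to Myh6 (0.36), and Myom1 to Ttn (0.39). Tcap was closest to Tnni3 (0.32), cardiac troponin I, and Myoz2 to Gm3272 (0.32), then to Mb (0.29), myoglobin. Nebl was closest to Alpk3 (0.35), Pdlim5 to Hnrnph2 (0.34) and Synpo2l to Ammecr1 (0.32). The rho of these 3 pairs, and of Tcap with Tnni3, was below 0 in at least 1 sum. Some of these ranks rested on the 2 cells without CM markers. Without them Ryr2 (0.3611) stood above Ttn (0.3607) for Myom1, Txnip (0.288) above Tnni3 (0.286) for Tcap, and Tmem176b (0.319) above Hnrnph2 (0.312) for Pdlim5.

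A wider set of 39 genes in 6 lists of Z-disc, filament-anchoring, M-band and calcineurin genes was examined in the same fits. Of these, 35 were tested, and 0 passed in any of the 3 comparisons in edgeR's test, while DESeq2 called 1, Ankrd1, in both comparisons with control, where it called 0.869 and 0.451% of all genes. Their median log2 fold change was -0.09 in bright against control, -0.11 in dim against control and 0.01 in bright against dim CMs, beside medians of all genes of 0.11, 0.10 and -0.01. At an unadjusted p under 0.05 stood 4, 3 and 1 of the 35, beside 6.55, 6.22 and 4.12% of all genes tested.

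Ankrd1, encoding a titin-associated ankyrin repeat protein of the I-band and a known stress-responsive gene, had the lowest p of the 35. It had 192 and 233 normalized CPM in the controls and 1208 and 1204 in the bright mice (log2 fold change 2.50, SE 0.28, edgeR adjusted p = 0.289). All 12 alternatives kept its sign, with adjusted p from 2.77e-09 to 0.284, and DESeq2 called it (adjusted p = 3.67e-08). In dim cells it was 1.74 above control (SE 0.33, edgeR adjusted p = 0.735), and bright cells stood 0.77 above dim cells (SE 0.21). With the plate name prefix as a block, edgeR called Ankrd1 in both comparisons with control (adjusted p = 0.00311 in bright and 0.0142 in dim cells). Nexn, encoding the Z-disc actin binder nexilin, had 763 and 1155 normalized CPM in the controls and 546 and 449 in the bright mice (-0.95, SE 0.32, edgeR adjusted p = 0.663). In dim cells its fold change was -0.83 (SE 0.33). Without M73 these were -0.62 and -0.52, and with cells weighted equally -0.31 and 0.0012. Fhl2, a LIM protein that binds titin, had 1861 and 1211 against 868 and 665 (-1.003, SE 0.32, edgeR adjusted p = 0.663), which was -0.64 without M26 and -0.22 with cells weighted equally. Neb, encoding nebulin of skeletal muscle thin filaments, was near the limit of detection, with 5.21 and 33.6 normalized CPM in the controls and 0.684 and 2.94 in the bright mice (-3.40, SE 1.395, edgeR adjusted p = 0.763). Without the 2 cells that lacked CM markers, bright against control gave 2.56 for Ankrd1, -0.88 for Nexn, -0.94 for Fhl2 and -3.45 for Neb, and bright against dim 0.82 for Ankrd1. The highest level of Neb was that of M73, without which the fold change was -1.51, and with cells weighted equally it was -0.81.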

How the data were processed

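Per the study's methods, STAR aligned each library to mouse sequence extended by the transgene (human BAG3, eGFP), and the authors deposited a table of raw read counts per gene. The genome build, the annotation and whether counting used strand are not given in the sources used here. The depth per sum and per cell is given with the results, and reads without molecular identifiers are not independent molecules.

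Samples were grouped by the labels, and counts were summed per mouse and label, since cells of a mouse are not replicates. Each comparison used the 4 sums of 2 groups in edgeR 4.0.16 (filterByExpr, TMM, quasi-likelihood test, two-sided, Benjamini-Hochberg over all genes tested, threshold 0.05). Standard errors were derived from the fold change and its F statistic. Alternatives were DESeq2 1.42.0, library size scaling, no filter, cells with at least 1000 genes, cells weighted equally (limma 3.58.1 on means of log2(CPM + 1)), all 8 sums in 1 fit, the plate name prefix (GL-9122b or GL9989) or the mouse as a block, and leaving out each mouse, which takes the spread of a single remaining mouse from the opposite group. Leaving out the 2 cells of at least 1000 genes with under 10000 CPM of cardiomyocyte markers was added after seeing the data. The fits were tested on simulated data.

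Bright and dim cells of M25 and of M116 come from the same animals, so the mouse pairs these sums by the labels. The difference between both mice correlated by 0.0819 (Pearson, 13439 genes) between bright and dim sums. The genes, lists and tests were chosen with earlier results of these data known. Named besides the 9 genes were, per list, the gene with the lowest unadjusted p under 0.05, and for each of the 9 the 3 genes of highest mean rho, of which the closest 1 to 3 are given. Cells under 1000 genes stayed in the sums.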

Additional observations from a re-analysis of the deposited data

Results flagged for a closer look

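In 3 genes the bright cells differed from the dim cells in opposite directions in the homozygous and heterozygous mice. Synpo2l was higher in bright than in dim cells by 0.81 (M25) and 0.51 (M116) on the log2 scale, while the cells labelled het_bright of M72 gave -0.42. Ttn gave -0.32 and -0.11 in the homozygous mice and 0.36 in M72. Pdlim5 gave -0.19 and -0.065 against 0.17. These differences between mice were not tested, since there was 1 heterozygous mouse, and in M72 the transgene transcripts were higher in the cells labelled het_dim, opposite to the homozygous mice. Read from the label with more hBAG, het_dim minus het_bright gave 0.42 for Synpo2l, -0.36 for Ttn and -0.17 for Pdlim5. These are the signs of bright minus dim cells in the homozygous mice. They follow by design, since the 3 genes were picked for the opposite sign in M72. Actn2, which was lower in bright cells of both homozygous mice (-0.18 and -0.032), gave 0.064 in this reading. Whether the labels of M72 were exchanged was not tested.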

How the results depend on the processing

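In 315 other fits of the 9 genes, 0 passed the threshold (lowest adjusted p 0.0775, Tcap in dim against control CMs without M26), and 270 kept their direction. In bright against control CMs Pdlim5, Ttn and Synpo2l kept it in all 12 alternatives, in dim against control CMs Pdlim5, Tcap and Ttn in all 11, and in bright against dim CMs Actn2, Ttn and Synpo2l in all 12. No alternative fitted the plates of M116 apart. The cause of each change below was not tested.

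Genes called numbered 106, 55 and 89 with DESeq2 (bright against control, dim against control, bright against dim; 2, 0 and 0 in edgeR's test) and 163, 58 and 217 without a filter. Cells weighted equally gave 4, 1 and 2, and 1 fit of all groups 5 and 1 against control. The plate name prefix (GL-9122b or GL9989) as a block gave 10 and 12. Leaving out each mouse gave 0 to 41, 3 to 827 (827 without M26) and 0 to 74 (74 without homo_bright M116). With the mouse as a replicate block, 0 genes were called between bright and dim CMs, Synpo2l was 0.65, and the block changed no call.

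Signs turned with library size in place of TMM for Actn2 (0.30), Ldb3 (0.25), Myoz2 (0.065), Nebl (0.22) and Myom1 (0.013) in bright and for Ldb3 (0.15), Myoz2 (0.11), Nebl (0.23) and Synpo2l (0.30) in dim against control CMs. Cells weighted equally turned Ldb3 (0.30), Nebl (0.73) and Myom1 (0.032) in bright and Ldb3 (0.72), Myoz2 (0.33), Nebl (1.12), Myom1 (0.61), Synpo2l (1.81) and Nexn (0.0012) in dim against control CMs, and Ldb3 (-0.42), Tcap (-0.50) and Myom1 (-0.57) in bright against dim CMs. Actn2 in bright against control CMs was 0.024 without a filter, 0.0026 with all groups and 0.040 without the 2 cells, and Synpo2l in dim against control CMs was 0.030 and 0.0017 in the first and the second of these.

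Leaving out each mouse turned a sign within -0.11 to 0.094 for Actn2, -0.18 to 0.082 for Ldb3, -0.78 to 0.17 for Tcap and -0.45 to 0.20 for Nebl in bright against control CMs. Against control, dim CMs gave -0.015 to 0.22 for Actn2, -0.27 to 0.025 for Ldb3, -0.53 to 0.15 for Myoz2, -0.29 to 0.15 for Nebl and -0.32 to 0.28 for Synpo2l. Between bright and dim CMs the ranges were -0.053 to 0.22 for Ldb3, -0.39 to 0.34 for Myoz2, -0.14 to 0.56 for Tcap, -0.37 to 0.22 for Nebl and -0.40 to 0.17 for Pdlim5. With 2 mice a group, the number of animals limits the precision.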
